A study of Saccharomyces cerevisiae with 20 samples.

Results

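Macroautophagy in budding yeast is carried out by the products of the ATG genes, and 10 of its core members, ATG1 (YGL180W), ATG2 (YNL242W), ATG3 (YNR007C), ATG5 (YPL149W), ATG7 (YHR171W), ATG8 (YBL078C), ATG9 (YDL149W), ATG13 (YPR185W), ATG14 (YBR128C) and ATG19 (YOL082W), were followed here through every strain and both growth phases of the series. The genes were chosen by name from the rows of the deposited tables, which list 6921 genes in all, and each of the 10 was present and tested in all 8 tables. RNA-Seq was performed on Saccharomyces cerevisiae W303 RAD5+ that lacked Tup1, Sds3, Xbp1 or Isw2 and on the wild type (WT) parent strain. Null alleles (Δtup1, Δsds3, Δxbp1 and Δisw2) had been made by putting an antibiotic resistance marker in place of the gene, so that the deletion strains also carry a marker that WT does not. Cultures were grown in YPD (yeast extract, peptone and glucose) at 30 °C and harvested at stationary phase (SP, 3 days of growth) or at diauxic shift (DS, 2 hours after glucose could no longer be detected). With 2 biological replicates of each strain and phase, called libraries A and B, there were 10 groups and 20 libraries. The columns of the tables carry strain numbers, by which they were matched to groups but not to single samples. At DS both libraries of a deletion have the same strain number, whereas at SP library B of each deletion has another number than library A, and what sets these strains apart is not given in the sources used here. WT has the same number throughout. The SP samples were whole cultures and not purified quiescent cells, and Δtup1 cells grow as clumps.

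Autophagy is a route by which starving cells enclose cytoplasm in a double membrane, the autophagosome, and deliver it to the vacuole for breakdown and reuse. Atg1, a protein kinase, and its regulatory partner Atg13 start the process when nutrient signalling through TORC1 falls. Atg9, a membrane protein carried on vesicles, and Atg2, a lipid transfer protein, supply membrane, while Atg14 directs the phosphatidylinositol 3-kinase to the site of assembly. The ubiquitin-like protein Atg8 is then joined to phosphatidylethanolamine by Atg7, which activates it, by Atg3, which transfers it, and by the Atg12 conjugate of Atg5, which helps the transfer. Atg19 is the receptor of the Cvt pathway, a selective form of autophagy that brings the hydrolases Ape1 and Ams1 to the vacuole. In growing cells ATG8 is known to be repressed by Ume6, a DNA-binding protein that brings in the Rpd3L histone deacetylase. Sds3 is a subunit of Rpd3L, Tup1 is a corepressor, Xbp1 is a repressor induced by stress that also works with Rpd3L, and Isw2 is a chromatin remodeler.

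The sequences upstream of ATG8 and ATG19 are shown because these genes had the largest log2 differences of the 10. For ATG19 these were in Δtup1 at both phases and were called. For ATG8 it was in Δsds3 at DS, was not called, and was -0.71 without library B of Δsds3. A further reason is that ATG8 and ATG19 alone among the 10 held the core of the Ume6 element URS1 within 500 bases of the start codon. The sequences are those of the R64 reference (sacCer3, from RefSeq), which represents the strain S288C and not W303. Each is read 5′ to 3′ on the strand of the gene, from base 300 to base 61 before the start codon, and the annotation places no gene in either window. Capitals mark matches to GGCGGC (the URS1 core), AGGGG (the stress response element, STRE) or TGACTC (the element of the activator Gcn4) on either strand. The window of ATG8 lies at chrII:80792-81031 on the minus strand and that of ATG19 at chrXV:168427-168666 on the plus strand. The last line gives the 30 bases around the URS1 core of ATG19, which lies nearer the gene, at chrXV:168672-168701 on the plus strand.
ATG8: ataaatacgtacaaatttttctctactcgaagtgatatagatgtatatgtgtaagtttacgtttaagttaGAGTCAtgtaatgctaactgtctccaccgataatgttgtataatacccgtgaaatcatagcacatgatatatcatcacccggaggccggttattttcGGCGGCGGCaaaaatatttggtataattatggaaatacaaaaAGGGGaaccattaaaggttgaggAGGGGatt
ATG19: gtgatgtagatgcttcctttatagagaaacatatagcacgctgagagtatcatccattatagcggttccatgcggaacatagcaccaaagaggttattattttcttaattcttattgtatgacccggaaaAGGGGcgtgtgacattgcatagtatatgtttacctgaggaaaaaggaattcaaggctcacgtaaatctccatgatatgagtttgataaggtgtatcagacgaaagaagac
ATG19 URS1 core: cgaggtaattgcGGCGGCacttgcttcagt

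In the sequence of ATG8, GGCGGC was matched at 2 overlapping places, from base 133 to base 128 and from base 130 to base 125 before the start codon. The match of ATG19 covered bases 43 to 38. Both strands of the 500 bases before the start codon were searched for each gene, and these windows may run into a neighbouring gene. GGCGGC was present in 2 of the 10 genes and in 9.57% of 6000 promoters of the same length. AGGGG was present in 5 of the 10, namely ATG3, ATG8, ATG9, ATG13 and ATG19, and in 34.1% of promoters. TGACTC was present in ATG8 alone, at bases 230 to 225, and in 12.7% of promoters. The Xbp1 element CTCGAG was present in 0 of the 10 and in 8.20% of promoters. A match describes the letters and not the binding of a factor, and the shares were not tested.

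**Figure D1:**
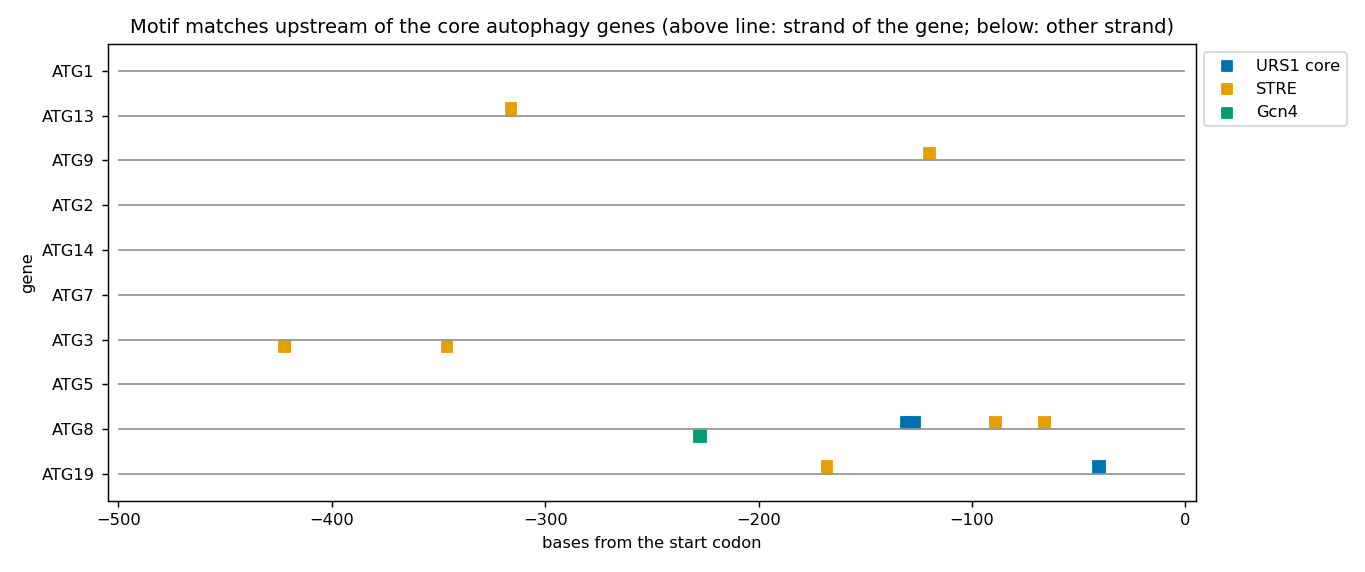
Motif matches within 500 bases upstream of the start codon of each gene, plotted by distance from the start codon in bases, with matches on the strand of the gene above the line and those on the other strand below it. The URS1 core is seen only in ATG8, at bases 133 to 125, and in ATG19, at bases 43 to 38, and STRE in 5 of the 10 genes.

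The 10 genes lie on 7 chromosomes, each in a single exon, and the annotation places no other gene over any of them. None of their 37-base stretches, the length of a read, occurs elsewhere in the genome, so that their counts are not shared with a paralog. Coding lengths ran from 354 bases for ATG8 to 4779 for ATG2. ATG19 (chrXV:168727-169974) lies 1774 bases downstream of ATG34, which encodes a related receptor, while ATG8 (chrII:80378-80731) lies 311 bases from ILS1.

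Reads on genes numbered 20963633 to 32558227 per library at DS, 9994448 to 28421881 in the A libraries at SP and 2543155 to 4424289 in the B libraries at SP. The fewest reads on any of the 10 genes in a library were 86. In the deletion strains the deleted gene kept 0 to 8 reads per library, at most 0.630% of the WT level. The WT libraries of a phase are shared by all 4 comparisons of that phase. Values are given as normalized counts, that is reads on a gene after division by a size factor from DESeq2, which sets the middle gene of the table at no difference between strains. Scaling to the total reads on genes in place of the size factor moved the log2 difference of the median gene by 0.56 in Δsds3 at SP, by 0.31 in Δsds3 at DS, by -0.31 in Δtup1 at DS and by 0.15 in Δxbp1 at SP, so differences in those comparisons are relative to the median gene. Libraries A and B of Δsds3 at DS stood apart, with 38.6% of genes at least 2-fold apart, against 0.668% to 3.83% in the other groups.

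A gene was called where limma gave a Benjamini-Hochberg adjusted p under 0.05 over all genes of the table and the difference was at least 1.5-fold. Whether libraries overlapped is given as a description. With 2 libraries against 2, a lack of overlap in either direction has a probability of 0.333 where groups do not differ. Of the 10 autophagy genes, 5 were called lower and 1 was called higher in Δtup1 than in WT at SP, where 24.0% of all genes tested were lower and 25.7% higher. In Δsds3 at SP, 5 were called lower and 0 higher, against 25.4% and 27.6% of all genes. The median log2 difference of the 10 was -0.50 in Δtup1 and -0.67 in Δsds3, against 0.00 over all genes in both. In Δxbp1 at SP, 1 gene was called lower, where 11.5% of all genes were lower and 12.3% higher. At DS, 2 genes were called lower in Δtup1, where 6.27% of all genes were lower and 13.8% higher. No gene of the 10 was called in Δsds3 at DS by limma, edgeR or DESeq2, where 2.79% of all genes were called in either direction. An unadjusted p under 0.05 was found for 2 of the 10 there, beside 807 genes higher and 680 lower of 6340 tested. In Δxbp1 at DS, Δisw2 at DS and Δisw2 at SP, 0 of the 10 were called by any of the 3 tools, and 0, 0 and 1 had an unadjusted p under 0.05. The shares of all genes called there were 0.465%, 0.0960% and 1.92%. At that unadjusted p, 443 genes were higher and 446 lower of 5953 tested in Δisw2 at SP. In Δisw2 at SP the fit with the replicate as a block called 297 genes in place of 114, and 0 of the 10. At DS the same block gave 997 genes in place of 177 in Δsds3, 162 in place of 29 in Δxbp1 and 135 in place of 6 in Δisw2, with 1, 0 and 0 of the 10 among them. In bulk RNA, fewer cells that transcribe a gene and less of its RNA per cell cannot be told apart.

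**Figure D2:**
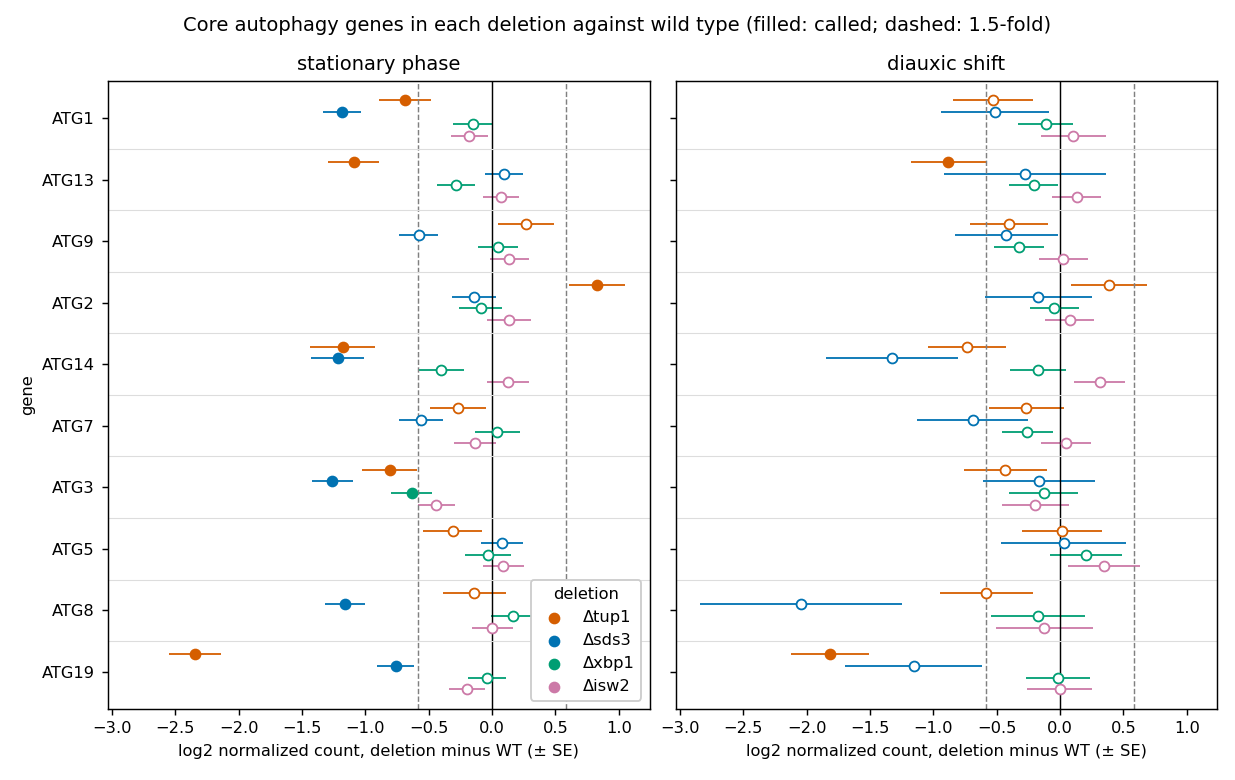
Log2 difference in normalized count of each gene between deletion and WT, with its standard error from limma (2 libraries per group), at SP on the left and DS on the right, coloured by deletion. Filled points were called, open points were not, and dashed lines mark 1.5-fold. ATG19 in Δtup1 lies farthest to the left at SP, at -2.34, and 5 of the 10 genes are filled to the left in each of Δtup1 and Δsds3 at SP.

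ATG1 and ATG13, which encode the kinase that starts autophagy and its partner, were both lower in Δtup1 at SP, while ATG1 alone was called lower in Δsds3. ATG1 had 1207 and 1169 normalized counts in Δtup1 at SP, against 1740.3 and 2104 in WT. Both Δtup1 libraries lay below both WT libraries, and the log2 difference was -0.69 ± 0.20 (SE, adjusted p = 0.015). Without WT replicate 2 it was -0.55 and was not called (adjusted p = 0.167). ATG1 had 989 and 1091 normalized counts in Δsds3 at SP, against 2182 and 2565 in WT. The groups did not overlap, and ATG1 fell by 1.19 on the log2 scale (SE 0.15, adjusted p = 7.8e-05).

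ATG13 was called lower in Δtup1 at both phases and in no other deletion. The counts were 501 and 557 in Δtup1 at SP, against 1061 and 1201 in WT. All Δtup1 values were below all WT values, with a log2 difference of -1.09 ± 0.20 (adjusted p = 0.0011). It had 1388 and 1599.7 normalized counts in Δsds3 at SP, against 1330.1 and 1465 in WT, and the groups overlapped (log2 difference 0.09 ± 0.15). Scaled to total reads, ATG13 was called higher in Δsds3, at 0.65 (adjusted p = 0.0041), where 2879 of 6211 genes tested were called higher. At DS, ATG13 had 992 and 1195 normalized counts in Δtup1, against 2023 and 1987 in WT. The groups did not overlap and ATG13 was called lower there, at -0.88 ± 0.30 (adjusted p = 0.041), but the call was lost on leaving out any of the 4 libraries (adjusted p 0.051 to 0.204). ATG1 was not called in Δtup1 at DS (-0.53 ± 0.31).

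Of the genes whose products supply membrane, ATG2 was called higher in Δtup1 at SP and ATG9 was not called in any comparison. ATG2 had 1695 and 1697 normalized counts in Δtup1 at SP, against 808 and 1128 in WT. This is the only rise called among the 10 genes in any of the 8 comparisons with the size factors, with both Δtup1 libraries above both WT libraries and a log2 difference of 0.83 ± 0.22 (adjusted p = 0.0087). It was not called without WT replicate 1, at 0.59 (adjusted p = 0.136). At DS, ATG2 had 3517 and 3560.5 normalized counts in Δtup1, against 2851 and 2575 in WT. The groups did not overlap there either, but the difference of 0.38 ± 0.30 missed the threshold. ATG2 overlapped with WT in Δsds3 at SP (-0.14 ± 0.17).

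ATG9 had 1566 and 2058 normalized counts in Δtup1 at SP, against 1336 and 1663 in WT, and the groups overlapped (0.27 ± 0.22). ATG9 counts were 1167 and 1302 in Δsds3 at SP, against 1675 and 2028 in WT. Both Δsds3 libraries were below both WT libraries and the adjusted p was 0.0078, but the difference of -0.58 ± 0.16 stayed just under 1.5-fold. Scaled to total reads it was -0.02, so that ATG9 lay lower than WT only relative to the median gene.

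ATG14, the autophagy subunit of the phosphatidylinositol 3-kinase, fell in both Δtup1 and Δsds3 at SP. It had 142 and 211 normalized counts in Δtup1, against 359.6 and 428 in WT. In Δsds3 it had 175 and 248, against 451 and 522 in WT as scaled in that table. The groups overlapped in neither comparison, and the log2 differences were -1.18 ± 0.26 in Δtup1 (adjusted p = 0.0028) and -1.22 ± 0.21 in Δsds3 (adjusted p = 0.00051). These 2 comparisons share their WT libraries. ATG14 had the fewest reads of the 10 genes in the Δtup1, Δsds3 and Δxbp1 tables at SP, with 86, 93 and 98 in the library that had least. At DS, ATG14 had 463 and 669 normalized counts in Δtup1, against 957 and 898 in WT, without overlap, and the difference of -0.74 ± 0.31 was not called (adjusted p = 0.099). Scaled to total reads, it was called lower there, at -1.05 (adjusted p = 0.012), as were ATG1 (-0.84) and ATG8 (-0.89). At that scaling, 1152 of 6295 genes tested were called lower.

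The other subunits of the kinase were VPS34, the catalytic subunit, VPS15, its regulatory kinase, and VPS30, the yeast Beclin. Of these 3, VPS30 and VPS15 were called lower in Δtup1 at SP and VPS34 was not, where 24.0% of all genes were lower. VPS30 had 315 and 425 normalized counts in Δtup1, against 1099 and 1467 in WT, a log2 difference of -1.79 ± 0.24 (adjusted p = 0.00011). VPS15 had 94.0 and 85.9, against 299 and 297 in WT, a difference of -1.72 ± 0.24 (adjusted p = 0.00017). VPS15 was also called lower in Δtup1 at DS, at -0.95 (adjusted p = 0.037). With the size factors, 0 of the 3 were called in Δsds3 at SP, where 25.4% of all genes were lower and 27.6% higher. Scaled to total reads, 2 were called higher, where 2879 of 6211 genes tested were higher. In Δsds3 at SP, VPS30 lay at -0.08 and VPS15 at 0.43.

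**Figure D3:**
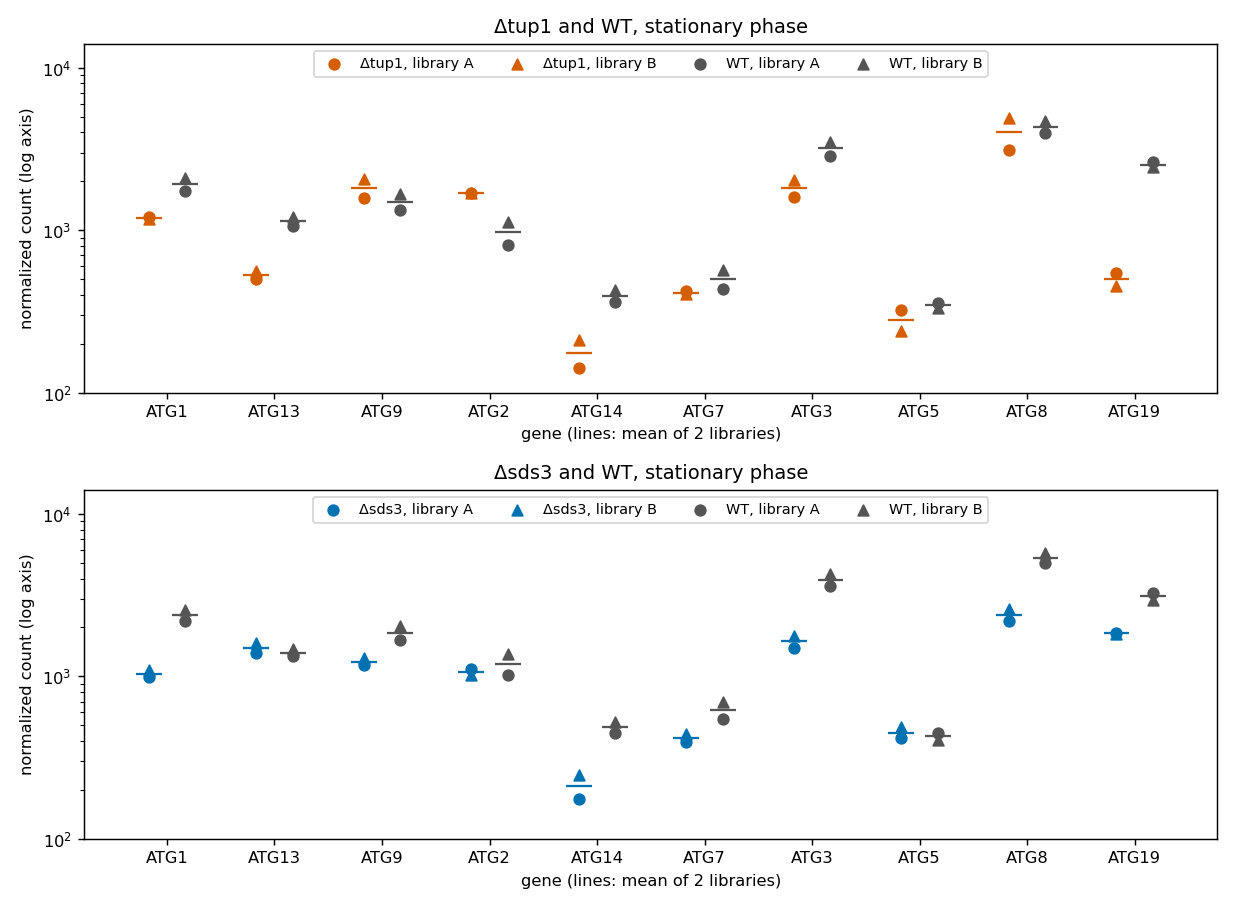
Normalized counts at SP on a log axis for the 10 genes in Δtup1 and WT (upper panel) and in Δsds3 and WT (lower panel), with circles for library A, triangles for library B and lines for the mean of 2 libraries. ATG19 shows the widest gap in the upper panel, 545 and 452 in Δtup1 below 2614 and 2435 in WT, and ATG2 is the gene whose Δtup1 points lie above WT without overlap.

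Among the genes of the Atg8 conjugation system, ATG3 was lower at SP in Δtup1, Δsds3 and Δxbp1, ATG8 was lower in Δsds3, and neither ATG7 nor ATG5 was called in any comparison. ATG3, the enzyme that transfers Atg8 to lipid, had 1608 and 2033 normalized counts in Δtup1, against 2870.5 and 3499 in WT. The groups did not overlap and the log2 difference was -0.81 ± 0.22 (adjusted p = 0.0090), although it was not called without WT replicate 2, at -0.67 (adjusted p = 0.092). In Δsds3, ATG3 had 1501 and 1778 normalized counts, against 3599 and 4267 in WT. This was the largest fall of the 10 in Δsds3 at SP, -1.26 ± 0.16 (adjusted p = 7.8e-05). In Δxbp1, ATG3 had 1708 and 2015 normalized counts, against 2643 and 3135 in WT. Both Δxbp1 libraries were below both WT libraries, with a difference of -0.63 ± 0.16 (adjusted p = 0.012), but the call was lost without WT replicate 2 (-0.51), without Δxbp1 replicate 1 (-0.51) and on scaling to total reads (-0.49). In Δisw2, ATG3 was also below WT in both libraries, with 2085 and 2209 against 2662 and 3183 normalized counts, and was not called (-0.44 ± 0.15, adjusted p = 0.188). The 4 comparisons share the WT libraries, in which ATG3 was higher than in each of the deletions.

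ATG8 fell in Δsds3 at SP, with 2205 and 2587 normalized counts, against 4994 and 5719.9 in WT. The groups did not overlap, and the difference was -1.16 ± 0.16 (adjusted p = 0.00013). It was called under each of the 14 alternatives run, and was -0.60 when scaled to total reads. ATG8 had 3129 and 4918 normalized counts in Δtup1 at SP, against 3984 and 4691 in WT, and the WT libraries lay between the Δtup1 libraries (-0.14 ± 0.25). At DS, libraries A and B of each strain lay far apart in ATG8. ATG8 had 6685 and 1058 normalized counts in Δsds3 at DS, against 15085 and 7960.2 in WT. Both Δsds3 libraries were below both WT libraries, but they were far apart from each other, and the difference of -2.04 ± 0.80 was not called (adjusted p = 0.178). With the replicate as a block the same difference was called, with an SE of 0.50 (adjusted p = 0.0011). It was -3.37 without Δsds3 replicate 1 and -0.71 without Δsds3 replicate 2, each from a fit with 1 Δsds3 library.

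In Δtup1 at DS, ATG8 had 4708 and 8953 normalized counts, against 13264 and 7112 in WT, and the groups overlapped. ATG7, the activating enzyme, had 394 and 442 normalized counts in Δsds3 at SP, against 547 and 694 in WT. The groups did not overlap and the adjusted p was 0.017, but the difference of -0.56 ± 0.18 was under 1.5-fold, and was close to 0 when scaled to total reads. ATG5, whose product is joined to Atg12, lay between -0.31 and 0.35 in all 8 comparisons. Scaled to total reads it was called higher in Δsds3 at SP, at 0.64 (adjusted p = 0.0092), where 2879 of 6211 genes tested were called higher.

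ATG19, the receptor of the Cvt pathway, had the largest called difference of the 10 genes, in Δtup1 at SP. There, it had 545 and 452 normalized counts, against 2614 and 2435 in WT. Both Δtup1 libraries were far below both WT libraries. ATG19 was 5.08-fold lower, a log2 difference of -2.34 ± 0.20 (adjusted p = 6.5e-06). At DS it had 1711 and 1981 normalized counts in Δtup1, against 7332 and 5744 in WT, again without overlap, a difference of -1.82 ± 0.31 (adjusted p = 0.00016). ATG19 was called lower in Δtup1 under each of the 14 alternatives run at either phase. ATG19 had 1848 and 1829 normalized counts in Δsds3 at SP, against 3277 and 2969 in WT. This fall of 0.76 on the log2 scale (SE 0.14, adjusted p = 0.0010) became -0.20 and not called when scaled to total reads. In Δsds3 at DS, ATG19 had 5379.6 and 2006 normalized counts, against 8338 and 6429 in WT, without overlap and without a call (-1.16 ± 0.54, adjusted p = 0.241). In Δxbp1 and Δisw2, ATG19 lay at -0.20 or closer to 0 at both phases.

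**Figure D4:**
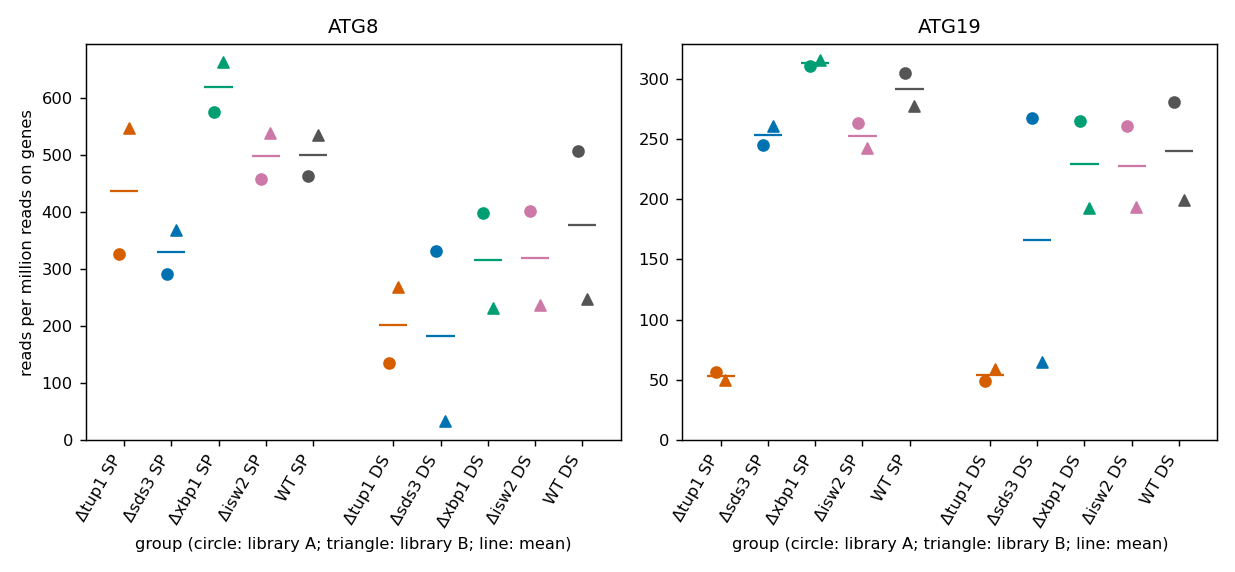
Level in RPM (reads on the gene per 1000000 reads on genes) of ATG8 and ATG19 in all 20 libraries by group, SP then DS, with circles for library A, triangles for library B and lines for the mean. ATG19 stays between 49.3 and 59.4 in the 4 Δtup1 libraries, while ATG8 is lowest of all 20 libraries, at 34.2, in library B of Δsds3 at DS.

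ATG34, the neighbour of ATG19 and a receptor for Ams1 during starvation, was lower in the same comparisons and was the gene with the largest difference among 25 further ATG genes in Δsds3 at SP. It had 823 and 974 normalized counts in Δsds3 at SP, against 6905 and 6365 in WT, a log2 difference of -2.89 ± 0.15 (adjusted p = 5.5e-07). In Δtup1 it had 1419.7 and 1628 normalized counts at SP, against 5508 and 5220.2 in WT (-1.82 ± 0.20). At DS it had 4866 and 4637 in Δtup1, against 11781 and 9639.6 in WT (-1.17 ± 0.31, adjusted p = 0.011). ATG19 was the more reduced of the neighbours in Δtup1, and ATG34 in Δsds3, although the difference between the genes was not tested.

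Of the cargoes and vacuolar hydrolases, APE1, the aminopeptidase that Atg19 carries, moved in opposite directions in the deletions. APE1 had 652 and 429.7 normalized counts in Δtup1 at SP, against 1415 and 1124 in WT (-1.25 ± 0.24, adjusted p = 0.0015). At DS it had 3205 and 2579.8 in Δtup1, against 9638 and 10172 in WT (-1.78 ± 0.31, adjusted p = 0.00022). APE1 had 4030.1 and 3620.0 normalized counts in Δsds3 at SP, against 1774 and 1371 in WT, and was called higher (1.29 ± 0.17, adjusted p = 8.5e-05). It was also called higher in Δxbp1 at SP (0.87, adjusted p = 0.0028). AMS1, the alpha-mannosidase that Atg19 also carries, was called lower in Δsds3 at SP (-1.15), as was PRC1, which encodes carboxypeptidase Y (-1.73). Of the 6 genes of this list, 3 were called higher in Δtup1 at SP, namely APE4 (2.00), the proteinase gene PEP4 (1.24) and the proteinase gene PRB1 (0.89), against 25.7% of all genes. APE4 (1.22) and PEP4 (1.18) were also called higher in Δtup1 at DS.

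The remaining 25 ATG genes included 11 that were lower and 3 that were higher in Δtup1 at SP, with a median log2 difference of -0.48. Of all genes, 24.0% were lower and 25.7% higher there. The largest falls after ATG34 were those of ATG38 (-1.82), which stabilizes the Atg14 form of the kinase, and ATG16 (-1.61), the partner of the Atg5 conjugate, and the largest rise was that of ATG41 (1.71). Of the 25, 14 were called lower and 0 higher in Δsds3 at SP, with a median of -0.79, against 25.4% and 27.6% of all genes. Scaled to total reads, 8 were lower and 2 higher, where 660 of 6211 genes tested were lower and 2879 higher. After ATG34 the lowest were ATG39 (-2.42), the receptor for the nuclear envelope, ATG33 (-2.26), which acts in the breakdown of mitochondria, and ATG36 (-1.96), the receptor for peroxisomes. In Δtup1 at DS, 5 of the 25 were lower, against 6.27% of all genes, with ATG38 (-1.27), ATG16 (-1.21) and ATG34 the lowest, together with ATG27 (-1.02). In Δxbp1 at SP, 3 were called lower, ATG31 (-0.78), ATG10 (-0.77) and ATG21 (-0.72), and ATG41 was called higher (0.83), against 11.5% of all genes lower and 12.3% higher. With total reads as the scale, 1 was lower and 3 were higher there, where 454 of 5968 genes tested were lower and 1003 higher. None of the 25 was called in Δsds3, Δxbp1 or Δisw2 at DS, where 2.79%, 0.465% and 0.0960% of all genes were called in either direction. In Δsds3 at DS, 6 were lower in the fit with the replicate as a block, where 462 of 6340 genes tested were lower. In Δisw2 at SP none was called either, against 1.92% of all genes. The fit with the replicate as a block gave 1 higher and 1 lower there, where 171 of 5953 genes tested were higher and 126 lower.

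Among 12 genes of nutrient signalling, 6 were called lower and 2 higher in Δsds3 at SP, where 25.4% of all genes were lower and 27.6% higher. The lower genes included TPK2 (-1.45), a catalytic subunit of protein kinase A, BCY1 (-1.21), the regulatory subunit of the same kinase, and TOR2 (-1.15). RIM15, a kinase needed for entry into stationary phase, was lower in Δtup1 at SP (-1.37), as was TOR2 (-0.74), while TPK3 (1.44) and LST8 (0.99), a subunit of TORC1, were higher. These were the genes of the 12 called there, 2 lower and 2 higher, against 24.0% and 25.7% of all genes. RIM15 was also called lower in Δtup1 at DS (-0.86), with an adjusted p just under the threshold, and was not called in the fit with the replicate as a block. No other gene of the 12 was called there, where 6.27% of all genes were lower and 13.8% higher.

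Of 9 transcriptional regulators of ATG genes, GIS1 (-1.51) and RPH1 (-1.22), related repressors of ATG genes, and MSN2 (-1.21), a stress activator that binds STRE, were lower in Δsds3 at SP. UME6 (0.99) and SPT10 (0.80) were higher there, where 27.6% of all genes were higher and 25.4% lower. In Δtup1 at SP, GLN3 (2.24), MSN4 (2.06) and UME6 (1.20) were higher, while GCN4 (-1.02) and RPH1 (-0.62) were lower, against 25.7% and 24.0% of all genes. MSN4 was also higher in Δtup1 at DS (1.02), and UME6 in Δxbp1 at SP (0.67).

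Of 12 subunits and partners of Rpd3L, 3 were called higher in Δsds3 at SP, ASH1 (2.77), SAP30 (1.48) and UME6, against 27.6% of all genes higher and 25.4% lower. SDS3 itself was lower there as the deleted gene, and RPD3 (-1.14) and UME1 (-0.71) were lower. Of the 12, 5 were higher in Δtup1 at SP, led by UME6, UME1 (0.79) and RXT2 (0.70), against 25.7% of all genes. ASH1 was lower in Δtup1 at DS (-1.48) and higher in Δisw2 at SP (0.93), with this second call lost when scaled to total reads. In Δxbp1 at SP, SAP30 (-0.95) and UME1 (-0.87) were lower and UME6 was higher, against 11.5% and 12.3% of all genes. With total reads as the scale, 1 of the 12 was lower and 2 were higher there, where 454 of 5968 genes tested were lower and 1003 higher. Scaled to total reads in Δsds3 at SP, 3 signalling genes were higher and 4 lower, 5 transcriptional regulators were higher and 3 lower, and 6 of the Rpd3L list were higher and 1 lower. Of all 6211 genes tested, 2879 were higher and 660 lower at that scaling. The lists were described by counts and were not tested as sets.

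None of the 10 genes but ATG3 was called in Δxbp1 or Δisw2 at either phase. In Δxbp1 at SP, ATG14 had 254 and 285 normalized counts, against 331 and 384 in WT, without overlap (-0.41 ± 0.18, adjusted p = 0.112). ATG8 had 3949.6 and 4904 in Δxbp1 at SP, against 3668 and 4203 in WT, and the groups overlapped (0.16). At DS, the log2 differences of the 10 ran between -0.32 and 0.20 in Δxbp1 and between -0.19 and 0.35 in Δisw2. ATG14 had 1189 and 1222 normalized counts in Δisw2 at DS, against 996 and 947 in WT, without overlap and without a call (0.31).

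Whether a deletion changed a gene by a different amount at the 2 phases was tested with the interaction term of limma. Phase and strain number cannot be fully told apart in this test, since library B of each deletion, but not of WT, has another strain number at SP. None of the 10 genes was called in any of the 4 deletions, by limma or by edgeR, where 9.69% of all genes were called for Δtup1, 0.0809% for Δsds3, 0.722% for Δxbp1 and 0.00% for Δisw2. At an unadjusted p under 0.05, 1 of the 10 passed in Δsds3, ATG3, whose difference was -1.26 at SP and -0.17 at DS (adjusted p of the interaction 0.501), and 0 passed in the other deletions. Over all 6179 genes tested for Δsds3, 292 passed with a positive term and 288 with a negative one. For ATG19 in Δtup1, the effect was -2.34 at SP and -1.82 at DS, a difference of -0.53 ± 0.33 (adjusted p = 0.314). Without Δsds3 replicate 1 at DS, the interaction term (effect at SP minus effect at DS) was 2.21 for ATG8, 1.38 for ATG13 and 1.10 for ATG19. That fit has 1 Δsds3 library at DS, and ATG8 and ATG19 were below WT at both phases.

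Levels of the 10 genes were set against each other per length, as RPM per kb of coding sequence. In every group ATG8 had the highest mean level, from 517 in Δsds3 at DS to 1749 in Δxbp1 at SP as the mean of 2 libraries. The mean in Δsds3 at DS rests on library A, since ATG8 stood at 938 and 96.7 in the 2 libraries and ATG3 at 242 and 121, above ATG8 in library B. In WT at SP, ATG8 stood at 1310.3 and 1511, followed by ATG3 at 358 and 428 and by ATG19 at 244 and 222. ATG1 came next at 75.2 and 89.0, and none of these neighbours overlapped. ATG13 and ATG9 overlapped with each other, as did ATG5 and ATG14, and as did ATG7 and ATG2, which was lowest at 19.7 and 26.9. In WT at DS the order began with ATG8, ATG19 and ATG3, the last of which overlapped with ATG19. In Δtup1 at SP, ATG19 had rank 5 of the 10, at a mean of 43.0, against 233 in WT. In Δtup1 at DS it had rank 4, at a mean of 43.5, against 192 in WT, and overlapped there with ATG5.

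Levels in RPM were also compared between phases within each strain, as a description, since the tables of the phases were normalized separately and the phase, the set of libraries and, in library B of the deletions, the strain number cannot be told apart. In WT, 5 of the 10 genes were higher at SP without overlap, 1 was lower and 4 overlapped, against 36.1% of all genes higher and 28.4% lower. ATG3 had 334 and 399 RPM in WT at SP, against 188 and 111 at DS, a ratio of 2.45. ATG1 had 203 and 239.8 at SP, against 95.4 and 113 at DS, a ratio of 2.13. ATG13 (1.78), ATG9 (1.46) and ATG14 (1.34) were the others that were higher, and ATG7 (0.81) was the gene that was lower.

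In the deletions, 6 of the 10 genes were higher at SP in Δtup1, 3 in Δsds3, 8 in Δxbp1 and 7 in Δisw2, against 47.2%, 35.9%, 49.2% and 42.8% of all genes. ATG5 was lower at SP in Δtup1 (0.77), Δxbp1 (0.81) and Δisw2 (0.73), and ATG7 in Δtup1 (0.94) and Δisw2 (0.75). That made 2 of the 10 lower in Δtup1, 0 in Δsds3, 1 in Δxbp1 and 2 in Δisw2. Of all genes, 24.9%, 13.7%, 24.5% and 28.7% were lower without overlap in these strains. ATG19 had 57.0 and 50.4 RPM in Δtup1 at SP, against 49.3 and 59.4 at DS, so that the phases overlapped and the ratio was 0.99. In WT, ATG19 had 304 and 278 RPM at SP, against 280.5 and 199.5 at DS, which overlapped only through library A at DS.

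**Figure D5:**
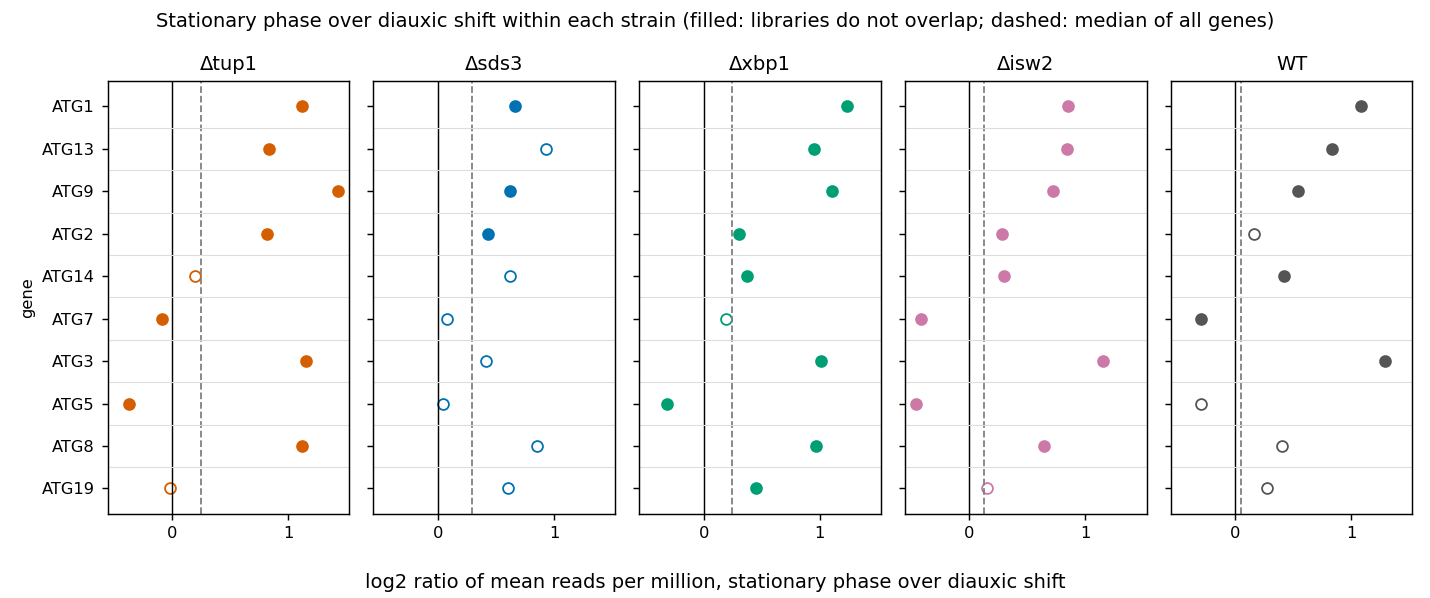
Log2 ratio of mean RPM at SP over DS for each gene within each strain (2 libraries per phase), filled where the libraries of the phases do not overlap, with the median of all genes as a dashed line. ATG1, at ratios of 1.59 to 2.36, and ATG9, at 1.46 to 2.70, are filled on the right in all 5 strains, while ATG5 lies left of 0 in all strains but Δsds3.

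The genes whose pattern was most like that of ATG8 were sought among 5910 genes that passed the filter in all tables, by Pearson's r of log2 RPM, centred within each phase, over the 20 libraries. They were BSD2 (r = 0.96), SRL2 (0.96) and VAB2 (0.96). These values rest in part on the Δsds3 libraries at DS, without which r was 0.91, 0.88 and 0.91. Among the other 9 autophagy genes, r with ATG8 was highest for ATG14 (0.72) and lowest for ATG5 (-0.25). Without the Δsds3 libraries at DS the order changed, with ATG3 (0.67) and ATG9 (0.65) above ATG14 (0.61) and ATG2 lowest (-0.24). The libraries differ in depth, and these values are a description.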

How the data were processed

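Paired-end reads of 37 cycles were aligned to sacCer3 with bowtie2 by the authors, who deposited, for each deletion and phase, a table of counts divided by DESeq2 size factors (unit: signal). The counting tool and its strand setting are not given in the sources used here. The tables also hold the authors' own log2 fold changes, p-values and related statistics, which were not used. Whole reads were recovered from the deposited values (99.9% to 100% of values per library whole within 0.05), and edgeR on these reads called 6 to 3318 genes per comparison, against 6 to 3294 by limma. The 10 genes and the gene lists were chosen with earlier results of these data known. Values were tested as log2(value + 1) with limma 3.58.1 in R 4.3.3 with a trended variance, after edgeR's expression filter on the recovered reads, within each table of 4 libraries (n = 2 per group), with Benjamini-Hochberg adjustment over all genes. Reported folds are on that scale and understate changes of low genes. Alternatives were edgeR 4.0.16 and DESeq2 1.42.0 on recovered reads, other pseudocounts, no filter, TMM, all groups of a phase, a replicate block, a stricter threshold, each library left out and, chosen after seeing the data, scaling to total reads. The scripts were tested on simulated data. Libraries A and B, written as replicates 1 and 2 where a library was left out, follow the endings of the column names, which the labels do not tie to single samples. Their deviations from the group means correlated over 0.1 in all 10 group pairs at SP (0.12 to 0.44), which was taken as pairing. At DS they did so in the 6 pairs without Δtup1 (0.16 to 0.73) and in none of the 4 with Δtup1 (-0.26 to -0.06). Named list genes were at most the 4 with the largest called difference per list and comparison, and others were named after their values were seen. The values of 1 gene of the lists are not reported here.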

Additional observations from a re-analysis of the deposited data

Results flagged for a closer look

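In Δtup1, 4 genes of the lists differed between phases in limma's interaction test, where 9.69% of all genes were called. Library B of Δtup1 at SP has another strain number, so phase and strain number cannot be fully told apart in these differences. GLN3, an activator of nitrogen genes, had a log2 difference of 2.24 at SP and 0.62 at DS, a difference between phases of 1.62 ± 0.32 (SE, adjusted p = 0.011). UME6 had 1.20 at SP and -0.50 at DS, a difference of 1.70 ± 0.35 (adjusted p = 0.014). ATG41 had 1.71 at SP and 0.31 at DS, a difference of 1.40 ± 0.40 (adjusted p = 0.042). ATG10, the enzyme that joins Atg12 to Atg5, had -1.47 at SP and 0.06 at DS, a difference of -1.53 ± 0.42 (adjusted p = 0.040).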

How the results depend on the processing

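Of the 10 genes in Δtup1 at DS, 2 were called lower, and the count was 1 with no filter, with the replicate block, with all groups of the phase, at an adjusted p under 0.01 and without any 1 library, and 5 when scaled to total reads. In Δsds3 at DS the count was 0, but 1 with the block or with all groups, and 0 to 4 on leaving out a library. In Δsds3 at SP, 2 of the 10 were called higher and 4 lower when scaled to total reads, against 0 and 5 with the size factors. At that scaling, 2879 of all 6211 genes tested were called higher and 660 lower. The 1 gene lower in Δxbp1 at SP was lost when scaled to total reads and at an adjusted p under 0.01 (0 in each), and the count ran from 0 to 1 on leaving out a library. In Δtup1 at SP, leaving out a library gave 0 to 1 higher and 3 to 5 lower, and the Δsds3 interaction 0 to 3 higher. No called difference reversed. All genes called in Δtup1 at DS were 1264, but 510 with all groups and 688 at 0.01. In Δsds3 at DS they were 177, but 997 with the block, 807 by DESeq2, 1532 with all groups, 66 with total reads, 2 at 0.01, and 40 to 2550 on leaving out a library. In Δxbp1 at DS they were 29, but 162, 141, 1, 49 and 2 under those settings, and 51 to 195. In Δisw2 at DS they were 6, but 135 with the block, 35 by DESeq2, 14 with total reads, 1 at 0.01, and 32 to 152. In Δisw2 at SP they were 114, but 297 with the block, 60 with all groups, 53 with total reads, 28 at 0.01, and 16 to 531. The block changed no call among the 10 at SP, while at DS it added ATG8 in Δsds3 and lost ATG13 in Δtup1, the strain whose libraries did not correlate by number with the others. Beyond the changes of setting, the causes were not tested. With 2 libraries per group, small differences could not be detected. A fit that leaves out a library has 1 library in that group. Its p-values and counts of calls therefore do not measure the spread within that group.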
